A study of Homo sapiens with 3 samples.

Results

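Kruppel-like factors (KLFs) are DNA-binding transcription factors, and 8 of them were followed here: KLF2, KLF3, KLF4, KLF5, KLF6, KLF10, KLF13 and KLF16. They were taken by gene symbol from a deposited table of 15625 genes, and all 8 were found in it. The libraries came from HCT116, an established human colorectal cancer cell line that carries the genotype label "MT" in every sample. One library had a control shRNA (sh_control), and 2 libraries had shRNA against circRAPGEF5 (sh_circRAPGEF5), a circular RNA from the RAPGEF5 gene. Cells of all 3 were collected 36 or 48 h after transfection, without the hour being given per library. The labels do not say whether knockdown libraries 1 and 2 come from separate hairpins or separate cultures, so p-values reflect the spread of these libraries alone and may be technical. The series title links the study to the RAS/RAF/MEK/ERK cascade, which carries growth factor signals.

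All KLF proteins end in a set of zinc fingers that reads GC-rich and CACCC-type DNA, a feature shared with the SP proteins. The KLFs differ in the part before the fingers. KLF2, KLF4, KLF5, KLF6 and KLF7 mainly activate transcription, KLF3, KLF8 and KLF12 recruit the CtBP corepressors, and KLF9, KLF10, KLF11, KLF13, KLF14 and KLF16 recruit the SIN3A corepressor. In the intestinal epithelium KLF5 marks dividing crypt cells and KLF4 marks cells that have left the cycle. KLF2, KLF4, KLF6 and KLF10 are also known as genes that respond quickly to growth factors or stress.

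Promoter windows from RefSeq (GRCh38.p14, 250 bases before to 50 after an annotated start) were used for 6 of the 8 genes. KLF3 had no window, and KLF10 was left out beforehand. The log2 fold change of KLF10, 0.6414, was slightly larger than that of KLF4, 0.6405. Of the 6 genes used, the windows of the 4 that stood farthest from the control are shown. These stretches hold the letters that KLF, SP, MEF2 and E-box factors read. Capitals mark every match, on either strand, to the GC box GGGCGG, the CACCC box CACCC, the E-box CACGTG and the MEF2 consensus, and neighbouring or overlapping matches run together.
KLF2, chr19:16324576-16324875, plus strand: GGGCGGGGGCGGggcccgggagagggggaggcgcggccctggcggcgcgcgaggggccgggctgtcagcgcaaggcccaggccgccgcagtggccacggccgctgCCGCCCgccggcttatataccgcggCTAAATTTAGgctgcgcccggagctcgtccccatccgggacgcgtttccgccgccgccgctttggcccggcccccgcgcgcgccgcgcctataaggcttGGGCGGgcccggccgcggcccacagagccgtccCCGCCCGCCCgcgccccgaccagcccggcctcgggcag
KLF5, chr13:73058755-73059054, plus strand: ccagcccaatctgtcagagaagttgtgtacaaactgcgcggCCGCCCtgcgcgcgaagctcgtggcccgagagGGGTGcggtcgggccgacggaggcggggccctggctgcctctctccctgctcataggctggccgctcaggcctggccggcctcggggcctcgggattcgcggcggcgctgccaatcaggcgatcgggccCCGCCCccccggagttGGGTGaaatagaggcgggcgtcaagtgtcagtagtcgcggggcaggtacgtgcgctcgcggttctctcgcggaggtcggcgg
KLF4, chr9:107489720-107490019, minus strand: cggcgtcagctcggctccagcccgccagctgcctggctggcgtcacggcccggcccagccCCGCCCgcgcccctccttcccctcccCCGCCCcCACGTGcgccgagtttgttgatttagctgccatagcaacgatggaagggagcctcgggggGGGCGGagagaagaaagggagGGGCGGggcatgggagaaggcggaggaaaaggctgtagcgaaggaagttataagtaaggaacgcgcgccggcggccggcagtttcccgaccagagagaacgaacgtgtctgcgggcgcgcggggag
KLF6, chr10:3785160-3785459, minus strand: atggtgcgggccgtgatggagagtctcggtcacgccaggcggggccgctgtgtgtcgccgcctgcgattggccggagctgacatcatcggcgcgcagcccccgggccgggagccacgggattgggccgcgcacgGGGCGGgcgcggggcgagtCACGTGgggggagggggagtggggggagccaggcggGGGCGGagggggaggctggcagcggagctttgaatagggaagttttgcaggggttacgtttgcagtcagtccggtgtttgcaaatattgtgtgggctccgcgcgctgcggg

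The KLF2 window held 6 GC boxes, of which the last pair overlaps, and 1 MEF2 consensus match, CTAAATTTAG, from 120 to 111 bases before the start. No other printed window held a MEF2 match, and 2.99% of all 35116 windows of the same length did. A CACGTG E-box was found in the KLF4 and KLF6 windows, against 7.26% of all windows. GC boxes occurred in all 4 printed windows and in 45.0% of all windows. The printed windows held 69.0% to 80.7% GC, against a median of 58.7% over all windows, so the shares of all windows come from DNA less rich in GC. Sites of the AP-1 and SRF factors were also sought. The printed windows held no such site, and 7.71% and 1.29% of all windows did. The CACCC box was found at 2 places in the printed KLF5 window, and 59.9% of all windows held it. KLF5 also has a start upstream, with a window of 40.7% GC against 71.3% in the printed one. These matches describe letters only, and gene-level values do not show which start was used.

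Depth was counted as the smallest whole reads that give the deposited values, and it came to 14632390 in the control and 14832142 and 15758794 in knockdown libraries 1 and 2. The true reads of a gene may be a multiple of these numbers. Levels are FPKM, which counts fragments per kilobase of a gene after scaling for library size and so is a level per length. The host gene RAPGEF5 had 1.98 FPKM in the control and 1.33 and 2.73 in libraries 1 and 2, a value of the linear transcript that says nothing of the circular RNA, so the knockdown has no check here. Of 8 epithelial genes 7 were expressed (EPCAM, CDH1, KRT8, KRT18, KRT19, CDX2 and CLDN7), VIL1 was at most 0.00944 FPKM, and their sum was 2346, 2614 and 3945 FPKM in the control and libraries 1 and 2. KLF2 is abundant in endothelial cells and lymphocytes, and of the defining genes KDR, VWF and TIE1 were at most 0.166 FPKM and PTPRC at most 0.0090. The 4 endothelial genes in the table summed to 13.5, 11.2 and 15.7 FPKM in the control and libraries 1 and 2, nearly all from EGFL7, and the 7 leukocyte genes to 5.68, 5.30 and 11.1. Among the latter CORO1A was lower in both knockdown libraries, at 2.59, 1.34 and 0.898 FPKM, CD68 higher in both, at 1.30, 3.55 and 7.50, and HLA-DRA on both sides of the control, at 0.944, 0.294 and 1.99. The 3 fibroblast genes summed to 14.0, 4.71 and 8.49 FPKM, nearly all from COL1A1, and the part of these differences in the KLF values was not tested. In bulk RNA, fewer cells with a transcript and less of it per cell cannot be told apart.

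KLF2 and KLF5 stood farthest from the control, in opposite directions. KLF2 was lower in both knockdown libraries and KLF5 higher, each by at least 2-fold in both. KLF4, KLF6 and KLF10 were also higher in both and KLF13 lower in both, while KLF3 and KLF16 stayed near the control. None of the 8 differences passed limma's test across all genes, so these are levels in 3 libraries and not called changes. At least 2-fold higher in both libraries were 1.21% of the 11216 genes tested, and at least 2-fold lower 1.70%.

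KLF2 (Entrez 10365, GRCh38 chromosome 19, 16324817 to 16327874, plus strand) keeps T lymphocytes and endothelial cells quiescent. Its level was 26.8 FPKM with the control shRNA, 9.06 in knockdown library 1 and 5.55 in library 2. Both knockdown values lay far below the control, at 33.8% and 20.7% of it, and their mean was 7.30 ± 2.48 FPKM (SD, n = 2). The smallest reads behind these values were 1233, 422 and 274, and the 95% counting intervals (exact Poisson) were 25.3 to 28.4, 8.21 to 9.97 and 4.91 to 6.24 FPKM, so no pair overlapped. These intervals cover counting error only and are widest-case, as more reads would narrow them. The log2 fold change of FPKM + 1, used for all fold changes below, was -1.78 ± 0.44 (SE), with a limma adjusted p of 0.429. KLF2 went from the second most abundant of the 8 genes in the control to the least abundant in both knockdown libraries.

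KLF5 (Entrez 688, chromosome 13, 73054976 to 73077542, plus strand), which drives proliferation of crypt cells, had 9.29 FPKM in the control, against 20.8 and 29.0 in libraries 1 and 2. Both knockdown values were above the control, with ratios of 2.24 and 3.12, and their mean was 24.9 ± 5.79 FPKM (SD, n = 2). The fold change was 1.31 ± 0.42 (SE), with a limma adjusted p of 0.553. Counting intervals of the 3 libraries did not overlap, at 8.52 to 10.1, 19.6 to 22.0 and 27.7 to 30.4 FPKM. In the control KLF5 lay at 34.6% of the KLF2 level, and in libraries 1 and 2 it was 2.29 and 5.22 times the KLF2 level.

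KLF4 (Entrez 9314, chromosome 9, 107484852 to 107490482, minus strand), which promotes growth arrest and differentiation of the gut epithelium, was at 7.11 FPKM in the control, 13.1 in library 1 and 10.4 in library 2. It was the least abundant of the 8 genes in the control. Both knockdown libraries were higher, with a fold change of 0.64 ± 0.42 (SE) and a limma adjusted p of 0.816. KLF4 and KLF5, often described as opposed in the gut, were thus on the same side of the control.

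KLF6 (Entrez 1316, chromosome 10, 3775996 to 3785281, minus strand), a broadly expressed activator induced by injury and growth factors, was at 24.2 FPKM in the control, 50.7 in library 1 and 28.9 in library 2. Library 1 stood apart, at 2.10 times the control, while library 2 was at 1.20 times. The fold change was 0.64 ± 0.44 (SE), limma adjusted p 0.817. KLF6 was past 2-fold in library 1 alone, where 3.18% of all genes were at least 2-fold higher.

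KLF10 (Entrez 7071, chromosome 8, 102648779 to 102655902, minus strand), an early gene of TGF-beta signaling, was the most abundant of the 8 in every library. It was at 35.5 FPKM in the control, 70.3 in library 1 and 44.6 in library 2. As with KLF6, library 1 was higher than library 2, and the fold changes were 0.96 and 0.32. Their mean was 0.64 ± 0.42 (SE), with a limma adjusted p of 0.816.

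KLF13 (Entrez 51621, chromosome 15, 31326855 to 31435665, plus strand), a regulator of the chemokine CCL5 in T lymphocytes, had 20.3 FPKM in the control, against 13.7 and 13.6 in libraries 1 and 2. The knockdown libraries were nearly equal, at 67.4% and 67.1% of the control. The fold change was -0.54 ± 0.41 (SE), with a limma adjusted p of 0.832. CCL5 itself was at most 0.186 FPKM in any library. A processed pseudogene, UBE2CP4, lies within the KLF13 gene on the same strand.

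KLF16 (Entrez 83855, chromosome 19, 1852399 to 1863568, minus strand), a factor of the SIN3A type, was at 23.0 FPKM in the control, 26.0 in library 1 and 21.5 in library 2. Library 1 was above the control and library 2 below it, as for 30.7% of all genes on opposite sides, with fold changes of 0.17 and -0.095. The mean was 0.039 ± 0.40 (SE), limma adjusted p 0.995, and it turned to -0.028 with quantile normalization. The gene overlaps 2 antisense genes, and without a stated strand setting their reads cannot be told apart.

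KLF3 (Entrez 51274, chromosome 4, 38664196 to 38701042, plus strand), a repressor that works through CtBP, had 13.6 FPKM in the control, against 12.2 and 13.3 in libraries 1 and 2. The fold change was -0.086 ± 0.41 (SE), limma adjusted p 0.983, and with median-ratio rescaling the knockdown libraries no longer lay on 1 side of the control. Its counting intervals, 12.8 to 14.3, 11.5 to 12.9 and 12.6 to 14.0 FPKM, overlapped between every pair of libraries. KLF3 overlaps the antisense gene KLF3-AS1, with the same limit on strand.

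**Figure D1:**
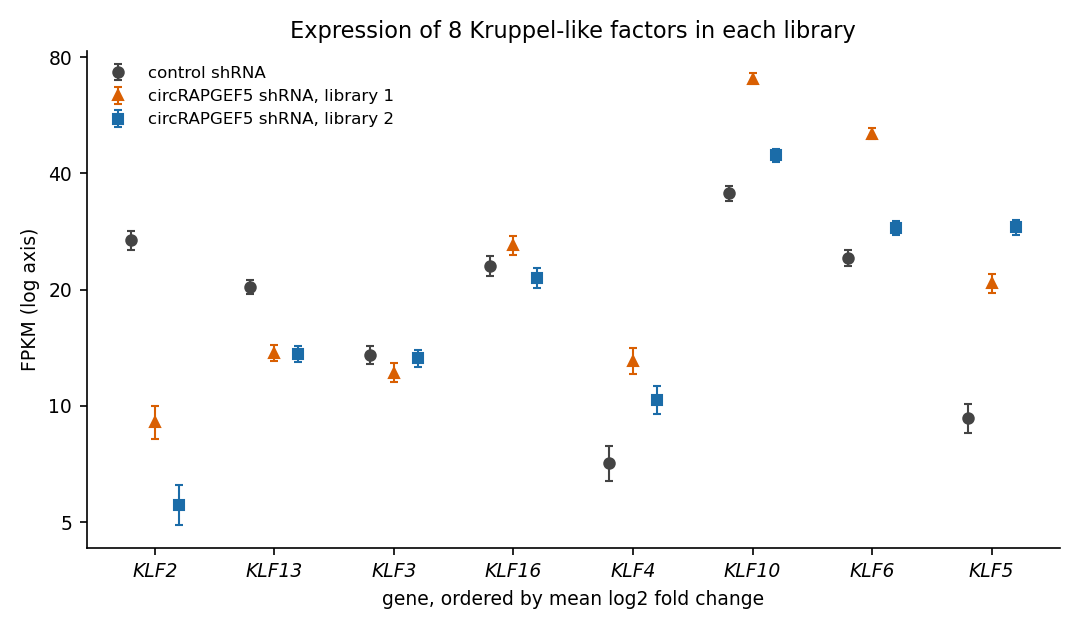
FPKM of the 8 genes (log axis) in the control library (circles), knockdown library 1 (triangles) and knockdown library 2 (squares); bars are 95% Poisson counting intervals, not replicate spread. KLF2 goes from 26.8 in the control to 9.06 and 5.55, KLF5 from 9.29 to 20.8 and 29.0, and KLF3 stays between 12.2 and 13.6.

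Of the 8 genes, 4 were higher in both knockdown libraries and 3 lower in both, or 2 lower with median-ratio rescaling. Among all genes tested, 31.7% were higher in both and 37.6% lower in both, and with 8 genes these counts are given as a description only. The median fold change of the 8 was 0.34, with 0.48 in library 1 and 0.11 in library 2, against -0.048 over all genes. Limma called 0 of the 8 at an adjusted p of 0.05, and across all genes it called 0.0178% higher and 0% lower. KLF2 and KLF5 had an unadjusted limma p under 0.05, as did 7.07% of all genes. The fit had 1 residual degree of freedom, and it assumes that the lone control varies like the knockdown libraries.

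The order of levels differed between libraries. In the control it ran KLF10, KLF2, KLF6, KLF16, KLF13, KLF3, KLF5 and KLF4, where KLF6 (23.1 to 25.3 FPKM) and KLF16 (21.6 to 24.4) could not be separated by their counting intervals. In library 1 the order was KLF10, KLF6, KLF16, KLF5, KLF13, KLF4, KLF3 and KLF2, where the interval of KLF4 overlapped those of KLF13 and KLF3, which did not overlap each other. In library 2 KLF5 and KLF6 shared the second place, at 29.0 and 28.9 FPKM. The control and both knockdown libraries thus had KLF10 first and KLF13 in the same place. Summed over the 8 genes, the level was 159.8 FPKM in the control, 215.8 in library 1 and 166.7 in library 2.

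The knockdown libraries differed most from each other in KLF6, by 0.79 (library 1 minus library 2, log2 scale). KLF10 followed at 0.65, KLF2 at 0.62 and KLF5 at -0.46. None of the 8 differed at least 2-fold between these libraries, where 8.99% of all genes did. With 1 library on each side there is no test of this difference. Against a fold change of 0.64, the gap of KLF6 or KLF10 between the knockdown libraries was of the same size as their distance from the control. For KLF2 and KLF5 the gap was smaller than the distance of either library from the control.

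**Figure D2:**
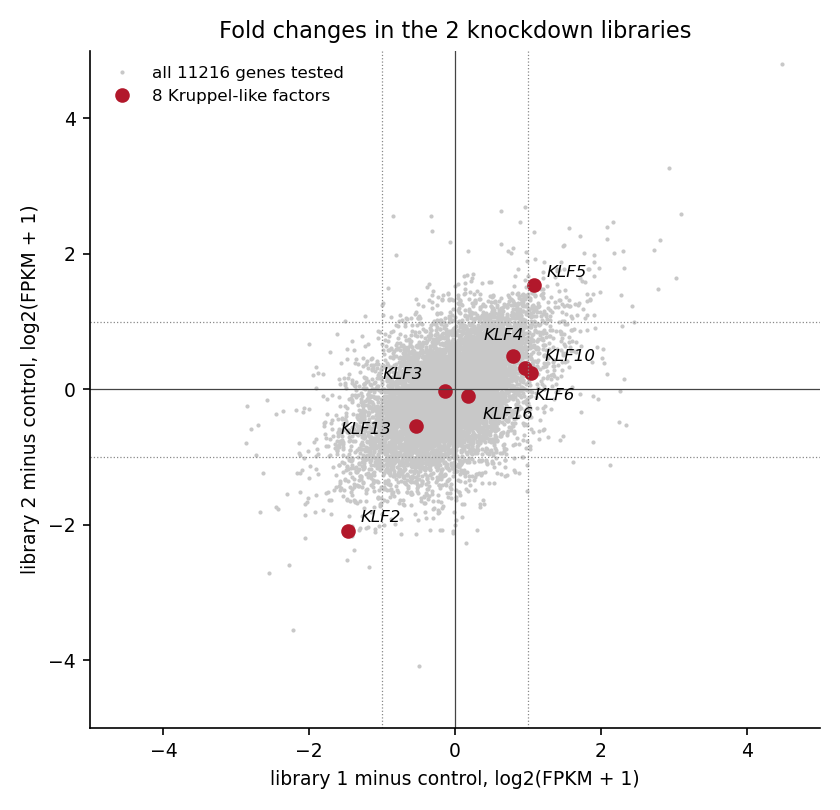
Log2(FPKM + 1) difference from the control in knockdown library 1 (x axis) and library 2 (y axis) for all 11216 genes tested (grey) and the 8 KLF genes (red); dotted lines mark 2-fold. KLF2, at -1.47 and -2.09, and KLF5, at 1.08 and 1.54, lie past 2-fold on both axes, and both axes share the one control library.

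The other KLF genes were weaker, and those that could be tested were all lower. Of 10 further KLF genes in the table, 4 had a mean of at least 1 FPKM (KLF7, KLF9, KLF11 and KLF12). All 4 were lower than the control in both knockdown libraries, with a median of -0.82, against 37.6% of all genes lower in both. Limma called 0 of the 4. KLF7 and KLF9, with knockdown means of 0.959 and 0.757 FPKM, passed this filter only through their control value, which favours lower genes. Without the filter, 6 of the 10 were lower in both and 1 was higher, with a median of -0.18. With a mean of at least 5 FPKM, 0 remained. KLF11, like KLF10 a TGF-beta early gene, had 6.74 FPKM in the control, against 1.53 and 3.11 in libraries 1 and 2, a fold change of -1.26 with a limma adjusted p of 0.623. It thus lay opposite to KLF10. KLF7, an activator close to KLF6, was at 2.67 against 1.21 and 0.704 FPKM, a fold change of -0.92. KLF12 (-0.72) and KLF9 (-0.54) were also under the control in each library. The remaining 6 (KLF1, KLF8, KLF14, KLF15, KLF17 and KLF18) were at most 1.02 FPKM in any library.

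The tested SP genes, whose products bind the same GC-rich DNA, lay below the control. Of 9, 5 were tested (SP1, SP2, SP3, SP4 and SP6). All 5 were lower in both knockdown libraries, or 3 of 5 with quantile normalization, against 37.6% of all genes. SP1, the general GC-box activator, had 31.7 FPKM in the control, against 18.7 and 19.7 in libraries 1 and 2. SP3, its close relative, was at 14.6 against 8.43 and 8.55. In both genes the knockdown libraries were nearly equal, with mean fold changes of -0.69 and -0.72. SP6 was at -0.58 and SP4 at -0.38, the median of the 5 was -0.58, and limma called 0. By type of KLF, the activators split, with KLF2 and KLF7 lower and KLF4, KLF5 and KLF6 higher. Of the tested genes of the SIN3A type, KLF9, KLF11 and KLF13 were lower, KLF10 higher and KLF16 on both sides, and both of the CtBP type, KLF3 and KLF12, were lower except for KLF3 with median-ratio rescaling. Across the 17 tested KLF and SP genes, 4 were higher in both libraries, 12 lower in both and 1 on both sides. Over all genes tested, these shares were 31.7%, 37.6% and 30.7%. Among the 12, KLF3 was at 89.9% and 97.8% of the control in libraries 1 and 2. KLF7, KLF9, KLF12 and SP4 had means of 1.02 to 1.53 FPKM, close to the filter of 1 FPKM.

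**Figure D3:**
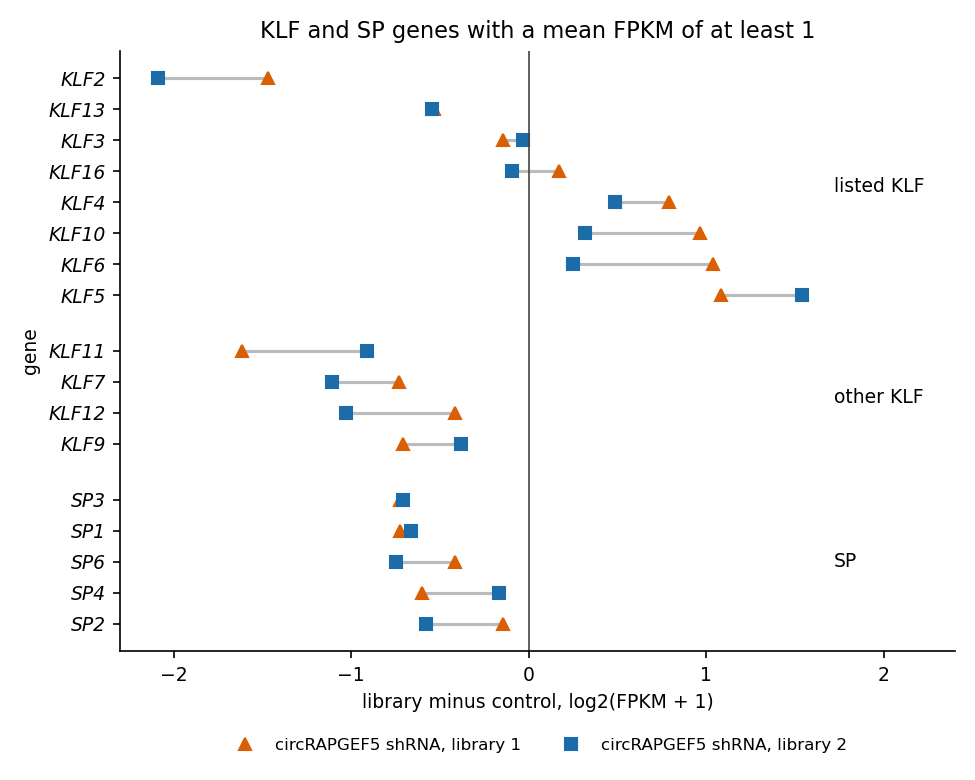
Difference from the control, log2(FPKM + 1), in knockdown library 1 (triangles) and library 2 (squares) for the 17 KLF and SP genes with a mean of at least 1 FPKM. The genes right of 0 in both libraries are KLF4, KLF5, KLF6 and KLF10, and the 4 other KLF genes and the 5 SP genes lie left of 0, except SP2 and SP4 with quantile normalization.

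KLF2 and KLF4 are known targets of the kinase ERK5 (MAPK7), which acts through MEF2 factors. Of 11 genes of this route, 10 were tested. Under the control in each knockdown library were 7 of the 10, against 37.6% of all genes. Above it were 0, against 31.7% of all genes. The median of the 10 was -0.35. The list joins kinases, MEF2 factors and deacetylases, whose parts in the route differ, so these counts do not give its activity. Of the targets named above, KLF2 was lower and KLF4 higher in both knockdown libraries. MEF2C, a MEF2 factor, had 10.0 FPKM in the control, against 1.68 and 2.47 in libraries 1 and 2. Its fold change was -1.85, with a limma adjusted p of 0.402, and any link between MEF2C and the KLF levels was not tested. HDAC7, a deacetylase that binds MEF2, was at 14.6 against 6.36 and 6.60 FPKM, a fold change of -1.06. MAP3K3 (-0.73), a kinase at the head of the route, and HDAC5 (-0.63) were lower too. MEF2D, at 10.7 against 15.3 and 8.59 FPKM, lay on both sides of the control, and ERK5 itself, MAPK7, was at 5.92 against 4.54 and 4.17. These last 2 genes lie outside the naming rule and were chosen after their values were seen. With rescaling of the libraries 6 genes of the route were lower in both, 1 was higher with median ratios and 2 were higher with quantiles. Limma called 0 of the 10.

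The corepressors and coactivators that KLFs recruit lay near the control by their median, though single genes stood farther off. Of 10 tested, 1 was above and 4 were below the control in each library, against 31.7% and 37.6% of all genes. The median was -0.15. HDAC3, a deacetylase, had 54.9 FPKM in the control, against 37.0 and 26.0 in libraries 1 and 2, a fold change of -0.80. HDAC1 was at 104.1 against 130.0 and 125.6. KAT2B, an acetyltransferase, was at -0.91 in library 1 and 0.25 in library 2, and SIN3A, the corepressor of the KLF10 and KLF13 type, had a fold change of -0.20. Genes of KLF protein turnover were balanced, 3 higher and 3 lower of 10, with a median of -0.096. FBXW7, a ubiquitin ligase subunit that targets KLF5, was at 4.07 FPKM against 8.70 and 6.06, on the same side as KLF5. SMURF2 was at 21.7 FPKM in the control, 51.8 in library 1 and 16.9 in library 2, BTRC had a fold change of -0.65, and SMURF1 was at 0.41. Limma called 0 genes in these lists.

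Reported target genes of KLFs did not move to 1 side. Of 18 tested, 10 were above and 5 below the control in each library, against 31.7% and 37.6% of all genes. The median was 0.19, and limma called 0. PDGFA, a growth factor activated by KLF5, had 4.02 FPKM in the control, against 10.1 and 8.73 in libraries 1 and 2, a fold change of 1.05. BIRC5, a survival gene also reported as a KLF5 target, was on the other side, with a fold change of -1.38, and BARD1, a partner of BRCA1, was at -1.09. CDKN1A, the cell cycle inhibitor activated by KLF4 and KLF6, had a fold change of 1.10, with 1.57 in library 1 and 0.63 in library 2. KLF4 and KLF6 were also higher in library 1 than in library 2, as was KLF10, while KLF5 was lower. Any link of CDKN1A to the KLF levels was not tested. The KLF2 targets S1PR1 and THBD were at most 0.057 FPKM in any library, and their levels therefore carry no reading of KLF2. The gut differentiation genes KRT4 and MUC2 were at most 0.267 FPKM. The keratin genes KRT13 and KRT19, on the same list, were higher in both knockdown libraries. KRT13, which lies outside the naming rule, had 0.430 FPKM in the control, against 0.600 and 3.60 in libraries 1 and 2. It is among the 10 above the control but passed the filter of 1 FPKM only through library 2, which favours higher genes. With a mean of at least 5 FPKM, 13 genes of the list remained, 9 above and 3 below the control in each library. KRT19 was at 563 against 622 and 1079.

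Immediate-early genes, the class to which several KLFs belong, were mixed. Of 12 tested, 7 were above and 3 below the control in each library, or 6 above with quantile normalization. Over all genes, 31.7% were above and 37.6% below. The medians of the 12 were 0.45 in library 1 and 0.027 in library 2. FOSL1, an AP-1 subunit, had a fold change of 2.34. FOS, another, was at -0.51 in library 1 and -1.93 in library 2. MYC was at 1.18 and ATF3, a stress factor, at 0.93. Limma called 0 of the 12.

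**Figure D4:**
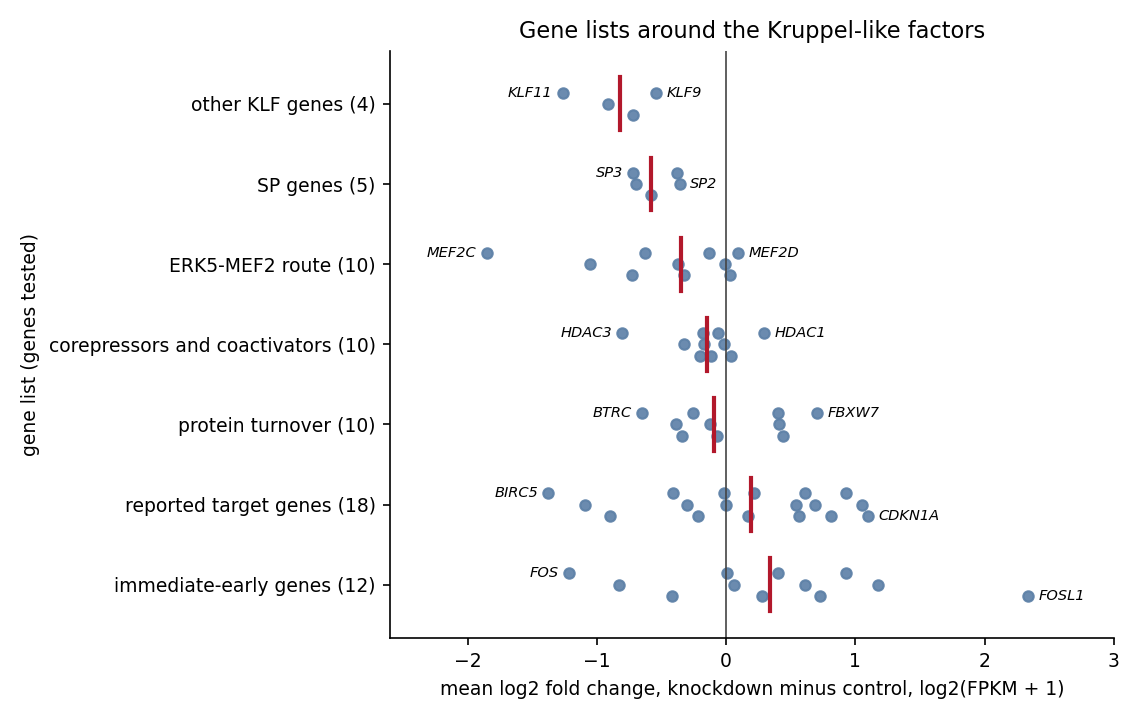
Mean difference of the knockdown libraries from the control, log2(FPKM + 1), for every tested gene (points) of 7 gene lists, with the list's median as a red bar; vertical offsets carry no meaning. The medians run from -0.82 in the other KLF genes to 0.34 in the immediate-early genes, with MEF2C at -1.85 at the low end of the ERK5-MEF2 list.

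Genes with the most similar pair of fold changes were sought for the 3 members farthest from the control, among 8190 genes with a mean of at least 5 FPKM, by the Euclidean distance of the differences in libraries 1 and 2. Nearest to KLF2 were MXD3, a partner of MAX, at 11.5 FPKM against 3.68 and 1.78 (distance 0.098), NUCKS1, at 122.3 against 48.7 and 28.2, and the heterochromatin protein gene CBX5, at 46.9 against 19.5 and 10.6. Of the 8190 genes, 2 lay within 0.2 of KLF2. Around KLF5 there were 21 such genes, the nearest being the sterol synthesis enzyme CYP51A1, the zinc finger gene ZPR1, and TUBB2A, which has a near-identical copy and is uncertain. Around KLF6 there were 54, with SPRYD7, MID1 and the lysosomal enzyme IDS nearest. These numbers depend on how many genes lie at each size of change, which was not tested. Likeness here rests on 3 libraries that share 1 control.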

How the data were processed

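Messenger RNA of HCT116 cells was measured by RNA-seq in 1 control and 2 knockdown libraries. The FPKM values were computed and deposited by the authors. Trimmomatic and HISAT2 were run with genome GRCh38.p13, per the submitters' processing notes, and per the labels' protocols the library kit was a TruSeq stranded kit for mRNA. For tool versions, counting, strand and annotation the entry is: not given in the sources used here.

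From these values, smallest whole reads were recovered from the ratios between libraries (relative tolerance 1e-12, all 15625 genes), and 95% exact Poisson intervals were set on them. Genes with a mean of at least 1 FPKM, 11216 in all, were tested on log2(FPKM + 1) with limma 3.58.1 (R 4.3.3, mean-variance trend, 10.92 prior degrees of freedom), with Benjamini-Hochberg adjustment over all of them and a threshold of 0.05. The log scale understates changes of weak genes. The script was tested on simulated data. An exact permutation test of 3 libraries cannot give a p under 0.33. Gene positions are from GENCODE (GRCh38). Named genes by rule are the 8 members, up to 4 tested genes per list with the largest absolute fold change, and the 3 genes nearest to each of the 3 members farthest from the control. Genes named outside this rule include RAPGEF5, SP2, MEF2D, MAPK7, KRT13, further cell type markers, and list genes too weak to be tested, such as S1PR1, THBD, KRT4, MUC2 and CCL5. Members, lists and tests were chosen with earlier results of these data known. Alternatives were other pseudocounts, filters, scalings, limma settings and fold thresholds, and leaving out a knockdown library.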

Additional observations from a re-analysis of the deposited data

How the results depend on the processing

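No alternative brought any of the 8 genes past the adjusted threshold, and the lowest adjusted p, 0.294 for KLF2, came with a pseudocount of 5. With limma's prior set to 5 degrees of freedom, the lowest was 0.924. The gene at least 2-fold higher in both libraries (KLF5) became 0 with a pseudocount of 5, and a threshold of 3-fold left 0 higher and 0 lower. Leaving out 1 knockdown library, which leaves fold changes with no test, gave 1 to 2 genes at least 2-fold higher, the second being KLF6 in library 1. KLF16 reversed to -0.028 with quantile normalization. Leaving out each knockdown library gave -0.095 to 0.17 for KLF16, -0.91 to 0.25 for KAT2B and -0.34 to 1.22 for SMURF2, with the reversed value of each without library 1. Of 88 alternative values for the 8 genes 86 kept their direction, as did 396 of 398 for the 37 other named genes. No value with a test crossed the adjusted threshold, and values with a library left out have no test. Other filters and limma settings leave the fold change itself as it was, so direction could not turn there and these counts are a description only. Over all settings the fold change ran from -2.09 to -1.39 for KLF2 and from 1.05 to 1.54 for KLF5. No paired analysis was possible because the single control library carries no replicate number.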
